A study of Mus musculus with 6 samples.

Results

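The 10 genes described here encode the muscle nicotinic acetylcholine receptor and the proteins that build and serve the neuromuscular junction. They were the rows of the deposited count table whose gene name was Chrna1, Chrnb1, Chrnd, Chrng, Chrne, Musk, Rapsn, Dok7, Agrn or Ache, and all 10 were found among 46983 genes. All 10 also passed the count filter, which kept 14450 genes for testing. Messenger RNA had been sequenced from myotubes of C2C12, an immortal mouse myoblast line that fuses into multinucleated fibres in low serum. The cells, of genotype WT and grown without motor neurons, received either corticosterone, the main glucocorticoid of rodents, at 1e-07 M or ethanol vehicle at 1 µL/mL, each for 24 h. Each treatment had 3 libraries, stated to be independent biological replicates, and the comparison asks which of these genes differ between corticosterone and vehicle.

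The muscle receptor is a pentamer of alpha, beta and delta subunits with a gamma subunit in fetal, denervated or cultured muscle and an epsilon subunit in adult innervated muscle. Agrin released by the nerve binds Lrp4 and activates the receptor tyrosine kinase MuSK, with the adaptor Dok7, and rapsyn then anchors receptors in dense clusters. Acetylcholinesterase ends transmission by splitting acetylcholine in the synaptic cleft. Myogenic factors such as myogenin drive the subunit genes through E-box sequences in their promoters.

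Total counts ran from 23877583 to 29928653 per library, and levels are given in CPM, counts brought to a common depth with TMM scaling. The floor set by 3 counts lay at 0.103 to 0.125 CPM, for counting error only. The libraries lay in 3 near pairs over all tested genes other than the members: corticosterone 1 with vehicle 3, vehicle 1 with vehicle 2, and corticosterone 2 with corticosterone 3. Their distances were 0.36, 0.36 and 0.40 log2 units, and the next smallest was 0.45. Glucocorticoid-induced Fkbp5 and Tsc22d3 went against the labels of the libraries labelled corticosterone 2 and vehicle 2. Libraries are named here by label and replicate, and values run from replicate 1 to 3, corticosterone before vehicle. Fkbp5 gave 151, 36.9 and 135 CPM against 36.9, 177 and 35.4 CPM. Tsc22d3 gave 218, 65.1 and 232 CPM against 67.0, 264 and 76.2 CPM. Whether the labels of these 2 libraries were exchanged cannot be settled from the counts, so every direction below is between libraries as labelled. In bulk RNA, fewer cells of a type and less RNA per cell cannot be told apart.

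By GENCODE M21 on GRCm38, Chrna1 (ENSMUSG00000027107) lies on chromosome 2, 73563215 to 73580338. Chrnb1 (ENSMUSG00000041189) lies on chromosome 11, 69784036 to 69795943, as does Chrne (ENSMUSG00000014609), 70614883 to 70619216. Chrnd (ENSMUSG00000026251) and Chrng (ENSMUSG00000026253) are neighbours on the same strand of chromosome 1, 87190607 to 87200070 and 87204657 to 87212694, with 4587 bp between them. Musk (ENSMUSG00000057280) and Agrn (ENSMUSG00000041936) lie on chromosome 4, 58285960 to 58374303 and 156165290 to 156197488. Rapsn (ENSMUSG00000002104) lies on chromosome 2, 91035620 to 91045729. Dok7 (ENSMUSG00000044716) and Ache (ENSMUSG00000023328) lie on chromosome 5, 35056766 to 35087839 and 137287519 to 137294466. Counts per gene cover all exons, so splice forms, among them the neural form of agrin, were not separated. Chrne overlaps 4930544D05Rik on the other strand, with 0 shared exon bases and 4 to 34 counts per library for that gene. Those counts ranked the libraries in the same order as the counts of Chrne, and any link between them was not tested. Rapsn shares 4 exon bases with Gm13778 on the other strand, which had 25 to 66 counts. Ache shares 98 exon bases with Gm42456 on the other strand, which had 0 counts in every library. Ache also overlaps Mir8116 on its own strand, with 0 shared exon bases and 1 to 4 counts.

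RefSeq (GRCm38.p6) windows of 250 bases before the transcription start were read for the 8 members in the promoter table. The start is that of RefSeq and can differ from the GENCODE gene start given above. The windows of Chrng and Ache, and 1 window each of Dok7 and Agrn, lie wholly inside the GENCODE gene spans. Only the 4 windows of receptor subunit genes are shown, and these genes had their lowest levels in the same libraries. Dok7 had the same low libraries, and its windows are not shown. Any link between the motifs and the levels was not tested. Capitals mark each E-box, CANNTG, and each N-box, CCGGAA, a motif bound by GABP at synaptic nuclei.
Chrna1 (chr2:73580339-73580588, minus strand): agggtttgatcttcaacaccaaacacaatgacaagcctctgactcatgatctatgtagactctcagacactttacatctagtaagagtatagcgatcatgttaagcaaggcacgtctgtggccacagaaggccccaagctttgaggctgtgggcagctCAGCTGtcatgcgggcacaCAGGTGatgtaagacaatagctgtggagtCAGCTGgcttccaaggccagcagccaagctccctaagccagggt
Chrnb1 (chr11:69795938-69796187, minus strand): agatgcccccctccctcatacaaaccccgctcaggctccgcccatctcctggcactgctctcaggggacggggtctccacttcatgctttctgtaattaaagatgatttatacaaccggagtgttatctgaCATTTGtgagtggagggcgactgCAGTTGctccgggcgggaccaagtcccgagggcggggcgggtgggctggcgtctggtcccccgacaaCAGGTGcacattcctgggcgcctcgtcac
Chrng (chr1:87205561-87205810, plus strand): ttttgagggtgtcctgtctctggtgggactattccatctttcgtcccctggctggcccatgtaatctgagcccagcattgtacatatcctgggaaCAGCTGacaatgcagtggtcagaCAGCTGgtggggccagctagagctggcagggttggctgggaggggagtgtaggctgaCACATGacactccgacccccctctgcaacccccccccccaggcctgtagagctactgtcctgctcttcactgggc
Chrne (chr11:70619195-70619444, minus strand): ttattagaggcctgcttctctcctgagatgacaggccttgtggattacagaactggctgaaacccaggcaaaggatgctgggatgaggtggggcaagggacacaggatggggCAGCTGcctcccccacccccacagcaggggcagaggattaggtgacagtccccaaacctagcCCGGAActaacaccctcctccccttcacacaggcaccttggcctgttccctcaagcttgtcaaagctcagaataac
Chrna1, Chrnb1, Chrng and Musk each held 3 E-boxes, Chrne and Ache held 1, and Dok7 and Agrn, with 2 windows each, held 1 in one window and 0 in the other, where 66.2% of 32851 windows of this length held at least 1. The E-box CAGCTG, read the same on both strands, was present in the windows of Chrna1, Chrng, Chrne and Musk, at 2, 2, 1 and 1 sites, and in 13.0% of all windows. In Chrna1 these sites began 92 and 44 bases before the start, and in Chrng 155 and 132 bases before it. The N-box, searched on both strands, was present in the window of Chrne alone among the members, 76 bases before the start, and in 12.03% of all windows.

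Between genes, levels were compared per kb of exon. Chrna1, the alpha subunit that binds acetylcholine, was the highest member at 420.3 ± 24.0 CPM per kb (SD over 6 libraries). Chrng, the fetal gamma subunit, followed at 244 ± 48.0, Chrnd, the delta subunit, at 165 ± 19.4, and Chrnb1, the beta subunit, at 104 ± 16.2. Rapsn stood at 66.9 ± 4.53, Musk at 26.1 ± 4.23 and Dok7 at 14.1 ± 1.84 CPM per kb. Agrn, at 7.68 ± 1.13, and Chrne, the adult epsilon subunit, at 7.20 ± 2.50, did not differ beyond their spread. Ache was lowest at 0.898 ± 0.320 CPM per kb. The ranges of Chrng (180 to 282) and Chrnd (137 to 191) overlapped over libraries, although Chrng was higher within each library, and those of the other neighbours down to Agrn did not overlap. With the longest transcript as the length, Chrna1 (385 to 441) and Chrng (269.9 to 423) overlapped, as did Musk (23.6 to 35.7) and Dok7 (17.2 to 24.7), and Chrng and Chrnd (152 to 213) did not.

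**Figure D1:**
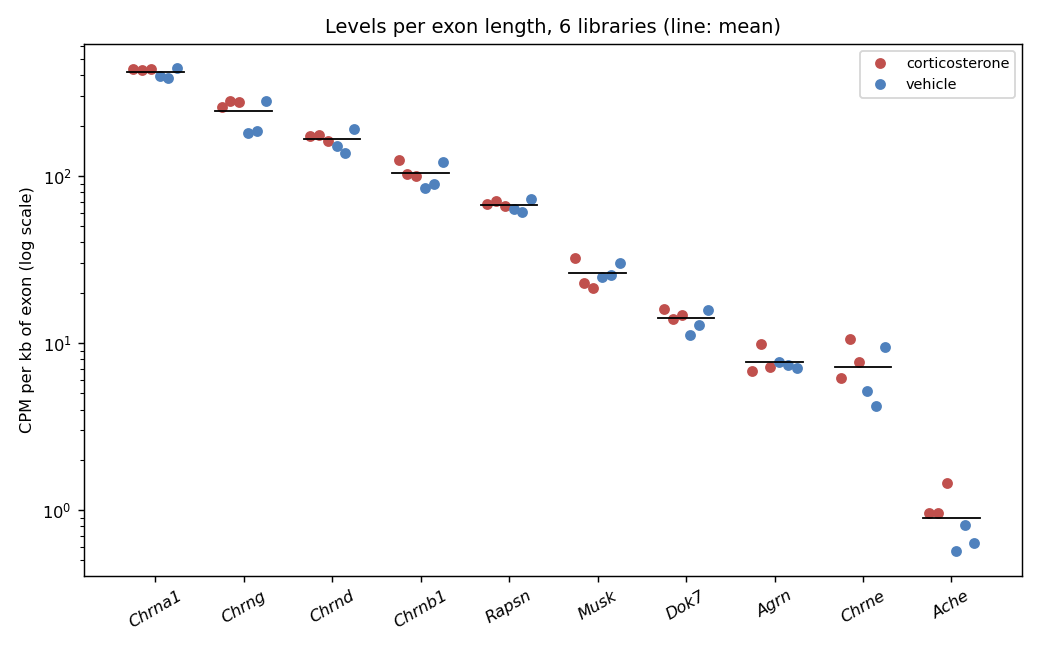
Level of each member in CPM per kb of exon, on a log axis, with 1 point per library coloured by treatment and a line at the mean of the 6 libraries. The fetal subunit Chrng lies between 180 and 282 and the adult subunit Chrne between 4.20 and 10.6.

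The receptor transcripts were of the fetal type in all 6 libraries. Chrng exceeded Chrne per kb of exon by 41.9, 26.6 and 35.9 times in the libraries labelled corticosterone 1, 2 and 3, and by 35.1, 44.2 and 29.9 times in those labelled vehicle 1, 2 and 3. The ratio was thus lowest in corticosterone 2 and highest in vehicle 2, and the groups overlapped, at 34.8 ± 7.72 against 36.4 ± 7.23 (SD, n = 3 each). Chrne made up 2.21 to 3.63% of the sum of these 2 transcripts. Chrng relative to Chrna1 was 0.590, 0.656 and 0.633 under the corticosterone label and 0.456, 0.482 and 0.640 under the vehicle label. The libraries labelled vehicle 1 and 2 had the lowest ratio, and vehicle 3 lay above corticosterone 1 and 3. With the longest transcript as the length, the mean over 6 libraries was 51.0 in place of 35.6 for Chrng to Chrne, and 0.863 in place of 0.576 for Chrng to Chrna1.

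None of the 10 members passed the test between the labels. edgeR called 0 members higher and 0 lower, where the share called over all genes tested was 0% in either direction. The members' edgeR adjusted p ran from 0.364 to 0.884, and the smallest over all genes tested was also 0.364. The log2 difference was above 0 for 9 members and below 0 for 1, with a median of 0.13, where 50.8% of all genes lay above 0 and their median was 0.004. The unadjusted p was under 0.05 for 1 member, Ache, and for 11.8% of all genes. Ache was also the 1 member whose CPM was separated between the labels. It was separated with corticosterone higher, as were 8.41% of all genes, with 16.6% separated in either direction.

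**Figure D2:**
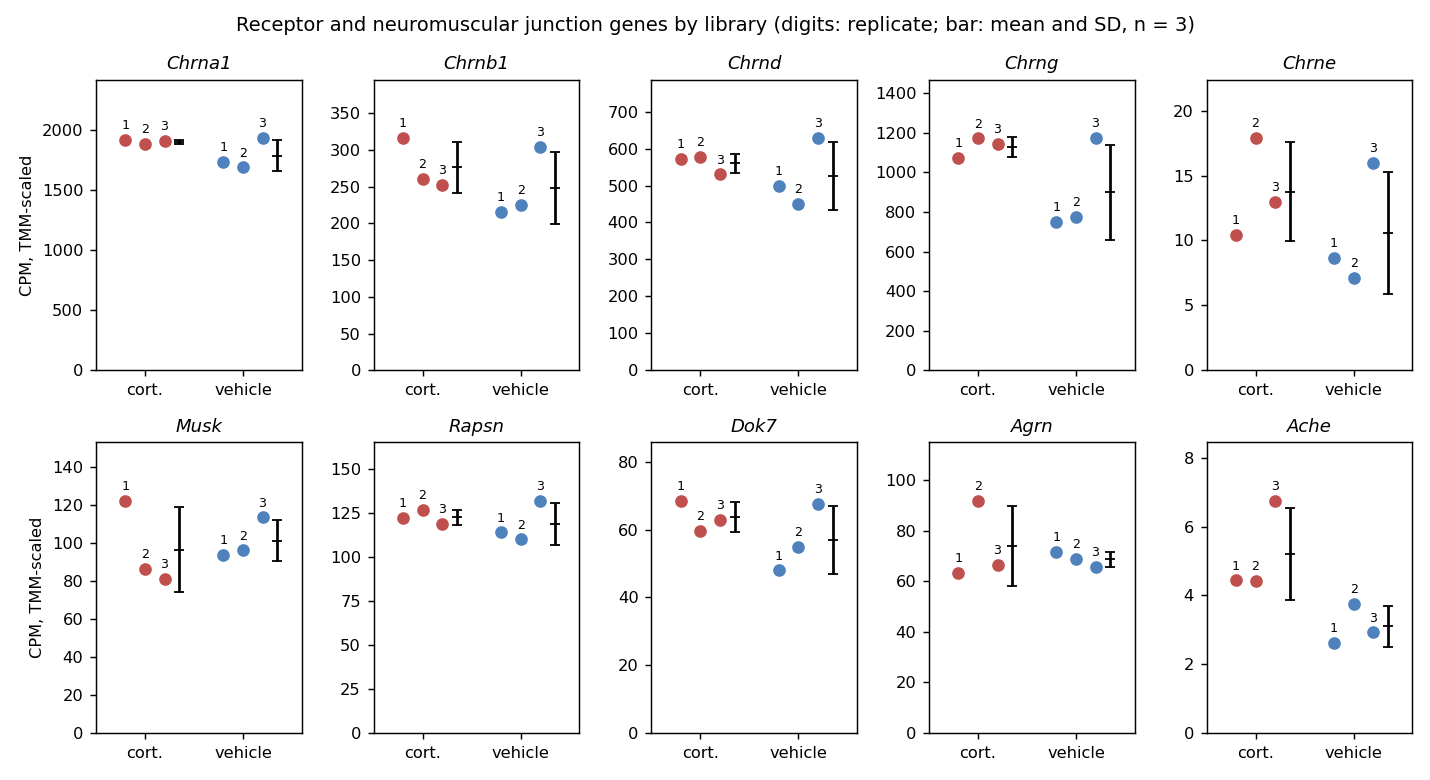
TMM-scaled CPM of the 10 members (vertical axes, each from 0) in the 3 libraries of each label, with replicate numbers above the points and the mean and SD beside them. In the receptor subunit panels the libraries labelled vehicle 1 and 2 lie below the other 4, and vehicle 3 lies among or above those labelled corticosterone.

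Chrng, like the other receptor subunits, had its lowest levels in 2 of the 3 libraries labelled vehicle. Its level was 1074, 1172 and 1145 CPM under corticosterone and 750.2, 773 and 1175 CPM under vehicle. Vehicle 1 and 2 were low, whereas vehicle 3 was the highest library of all 6, so the groups overlapped. The log2 difference was 0.33 ± 0.18 (SE; 95% interval -0.08 to 0.74; edgeR adjusted p = 0.486). Without vehicle 3 it was 0.56 (edgeR adjusted p = 0.0622, with 0.0744% of all genes called), and within the near pair of corticosterone 1 and vehicle 3 it was -0.13. With both libraries of that pair left out it was 0.60 and passed (edgeR adjusted p = 0.0321, with 3.96% of all genes called in that fit), a fit that sets 1 near pair against another.

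Chrne, the low adult subunit, varied most among the subunits, at 10.4, 17.9 and 13.0 CPM against 8.68, 7.10 and 15.9 CPM, from 206 to 523 counts. The highest library was corticosterone 2 and the lowest vehicle 2, with vehicle 3 above corticosterone 1 and 3. The log2 difference was 0.38 ± 0.32 (SE; 95% interval -0.37 to 1.14; edgeR adjusted p = 0.646). It was 0.79 without vehicle 3 and 0.15 without corticosterone 2, and it turned to -0.62 within the pair of corticosterone 1 and vehicle 3.

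Chrna1 was nearly level, at 1917, 1882 and 1906 CPM against 1733, 1688 and 1934 CPM. Again only the libraries labelled vehicle 1 and 2 stood lower, and the log2 difference was 0.09 ± 0.09 (95% interval -0.12 to 0.31; edgeR adjusted p = 0.693). Chrnb1 stood at 317, 260.4 and 253 CPM against 215, 225 and 304 CPM. Corticosterone 1 and vehicle 3 were its high libraries. Its log2 difference was 0.16 ± 0.15 (95% interval -0.20 to 0.51; edgeR adjusted p = 0.686). Chrnd stood at 573, 577 and 530.2 CPM against 499, 449 and 629 CPM, with vehicle 3 above every other library. Its log2 difference was 0.09 ± 0.13 (95% interval -0.21 to 0.40; edgeR adjusted p = 0.790), and it turned to -0.012 without vehicle 2.

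Among the clustering genes, Musk, the agrin-activated kinase, was the 1 member with a difference below 0. It stood at 122, 86.2 and 80.8 CPM against 93.7, 96.0 and 113 CPM. Corticosterone 1 and vehicle 3 were the high libraries and corticosterone 2 and 3 the low ones, so the order followed the near pairs and not the label. The log2 difference was -0.07 ± 0.16 (95% interval -0.45 to 0.31; edgeR adjusted p = 0.884). It was 0.0074 without corticosterone 2, 0.044 without corticosterone 3 and 0.015 without vehicle 3.

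Rapsn, which encodes the receptor anchor, was among the steadier members at 122, 127 and 118 CPM against 114, 109.8 and 132 CPM. Vehicle 3 was highest and vehicle 2 lowest, and the log2 difference was 0.05 ± 0.09 (95% interval -0.16 to 0.25; edgeR adjusted p = 0.843). It turned to -0.0062 without vehicle 2 and to -0.00036 with library totals in place of TMM scaling. Dok7, the adaptor that activates MuSK, stood at 68.6, 59.7 and 62.9 CPM against 47.9, 55.0 and 67.7 CPM. Vehicle 1 and 2 were low and vehicle 3 lay with corticosterone 1, and the log2 difference was 0.16 ± 0.13 (95% interval -0.14 to 0.47; edgeR adjusted p = 0.625).

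Agrn, the clustering proteoglycan, was set apart by 1 library. It stood at 63.2, 92.0 and 66.4 CPM against 71.7, 68.9 and 65.7 CPM. Corticosterone 2 was high and the other 5 libraries lay between 63.2 and 71.7 CPM. The log2 difference was 0.10 ± 0.14 (95% interval -0.23 to 0.44; edgeR adjusted p = 0.782), and it turned to -0.09 without corticosterone 2. Ache, the esterase, stood at 4.44, 4.42 and 6.76 CPM against 2.62, 3.76 and 2.92 CPM, from 67 to 172 counts. All 3 libraries labelled corticosterone lay above all 3 labelled vehicle, at 5.20 ± 1.35 against 3.10 ± 0.590 CPM (SD, n = 3 each). The log2 difference was 0.74 ± 0.24 (95% interval 0.18 to 1.31) with an unadjusted edgeR p of 0.0164. It did not pass over all genes (edgeR adjusted p = 0.364, also the smallest over all genes tested, DESeq2 adjusted p = 0.194, with 1.04% of all genes called by DESeq2). With 1 library left out it ran from 0.51 to 0.91. The gap between the labels lies between corticosterone 2 (4.42 CPM) and vehicle 2 (3.76 CPM), the libraries whose Fkbp5 went against their labels, and without both the difference was 1.01 (edgeR adjusted p = 0.724).

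**Figure D3:**
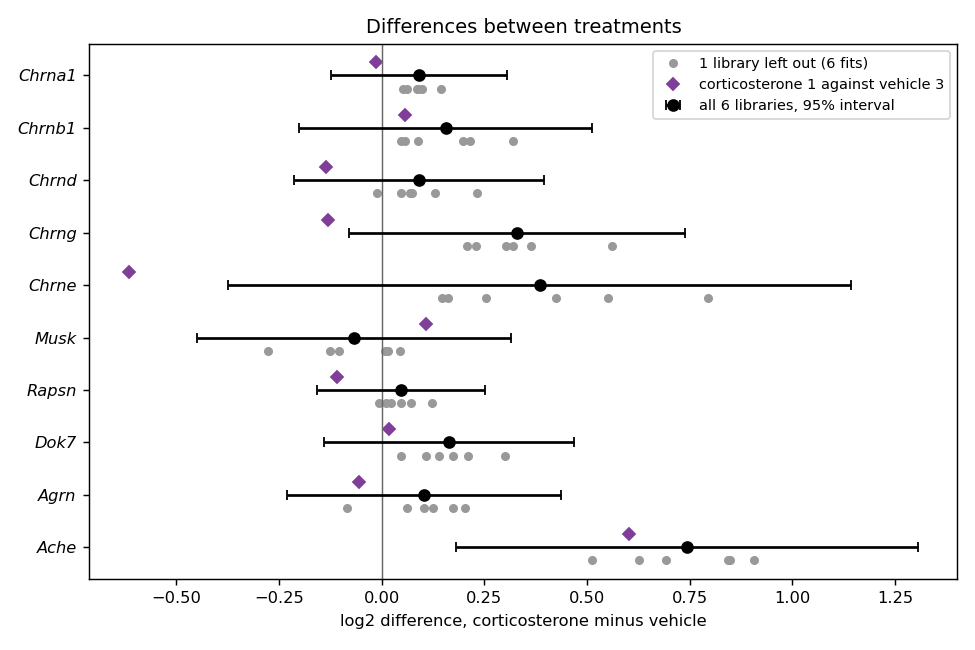
Log2 difference, corticosterone minus vehicle, for each member: black points with 95% intervals from all 6 libraries, grey points with 1 library left out, and diamonds for corticosterone 1 against vehicle 3. The interval of Ache, 0.18 to 1.31, is the 1 that lies above 0, and 7 of the 9 other members changed sign within the pair or with a library left out or in both.

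The near pairs were chosen as the nearest libraries and form 3 groups against the 2 labels, so their shares of the spread cannot be set against those of the labels, and each is read beside its value over all genes. Between-pair differences made up a median of 84.7% of the variance of log2 CPM over the 6 libraries for the members and 65.9% for all genes tested, and between-label differences 18.7% and 22.1%. The highest between-pair shares were those of Chrnb1 (98.1%), Chrng (97.9%) and Chrna1 (97.2%), and the lowest was that of Agrn (40.6%). Ache had 58.2% between pairs and 67.0% between labels. For 7 of 10 members, namely the 5 subunit genes, Rapsn and Dok7, the libraries labelled vehicle 1 and 2 both lay below the other 4, where 18.4% of all genes did so. This pattern was chosen after the values were seen and is given without a test. The values over all genes were not matched to the members' levels, so a part of abundance in these contrasts was not tested.

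Most markers of myotubes had the same low libraries. Vehicle 1 and 2 lay below the other 4 for 10 of 12, all but Des and Myh8, where 18.4% of all genes did so. The same held for 0 of 7 myoblast and proliferation markers. The summed level of 12 myotube markers was 11056 and 12459 CPM in the libraries labelled vehicle 1 and 2, 15907 CPM in vehicle 3, and 15665 to 18042 CPM under corticosterone. None of the 12 was called, and 11 had a log2 difference above 0, with a median of 0.23, where 50.8% of all genes lay above 0. Of the 12, 1 was higher under corticosterone without overlap, against 8.41% of all genes. Acta1, skeletal actin, stood at 4651 ± 177 against 4079 ± 474 CPM and Des, desmin, at 2504 ± 288 against 2581 ± 196 CPM (SD, n = 3 each). The summed level of the 7 myoblast and proliferation markers was 231 to 245 CPM under corticosterone and 273 to 283 CPM under vehicle, and 0 of 7 were called. Their log2 difference was below 0 for 5 and above 0 for 2. Of the 7, 3 were lower under corticosterone without overlap, against 8.19% of all genes. Top2a, a topoisomerase of dividing cells, stood at 57.6 ± 0.793 against 71.5 ± 3.01 CPM. Pax7, a factor of muscle stem cells, stood at 58.1 ± 7.67 against 54.6 ± 7.79 CPM. The part of either in the members' levels was not tested. Of 6 motor neuron markers, Chat, Mnx1 and Snap25 had 0 counts in every library, Isl1 had at most 0.103 CPM, and Slc5a7, a choline transporter, had 1.22 to 4.87 CPM.

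Within each near pair, 1 library had several times more Fkbp5 than the other: 151 against 35.4 CPM in corticosterone 1 and vehicle 3, 135 against 36.9 CPM in corticosterone 3 and corticosterone 2, and 177 against 36.9 CPM in vehicle 2 and vehicle 1. The members' values in the same order follow, as a description with no test, because Fkbp5 is a measured level and not a label. Ache was higher beside the higher Fkbp5 in each pair, at 4.44 against 2.92, 6.76 against 4.42 and 3.76 against 2.62 CPM, which are log2 gaps of 0.60, 0.61 and 0.52. Chrne was lower in each pair, at 10.4 against 15.9, 13.0 against 17.9 and 7.10 against 8.68 CPM, with log2 gaps of -0.62, -0.47 and -0.29. The gaps of Chrnd, from -0.15 to -0.12, and of Rapsn, from -0.11 to -0.05, were small and of 1 sign. Dok7 was higher in each pair by 0.02 to 0.20, and Agrn was lower by gaps of -0.06, -0.47 and -0.06. In all, 2 of 10 members followed the order of Fkbp5 in the 3 pairs, where 20.0% of all genes did, and 4 of 10 had the opposite order, where 20.5% did. Chrna1, Chrnb1, Chrng and Musk had no common order over the pairs.

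**Figure D4:**
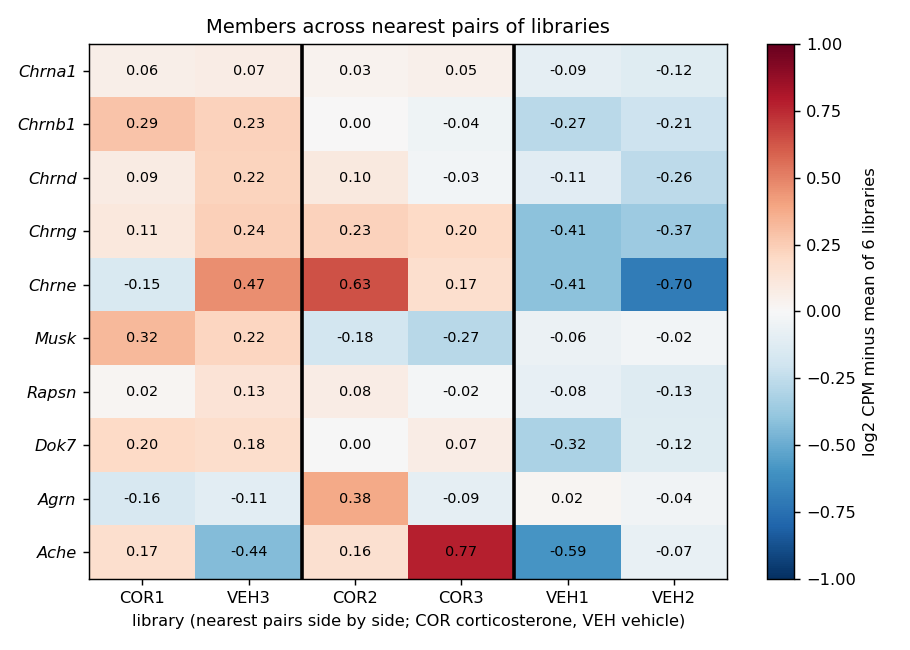
Log2 CPM of each member minus its mean over the 6 libraries, with the libraries of each near pair side by side between the black lines. Chrng is low in the pair of vehicle 1 and 2 (-0.41 and -0.37), Musk is low in the pair of corticosterone 2 and 3 (-0.18 and -0.27), and Chrne and Ache differ within every pair.

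Other genes of the junction were read from 5 lists holding 75 genes, of which 60 were tested. edgeR called 0 of the 60 in either direction, 34 had a log2 difference above 0 and 26 below, and the median was 0.03. The unadjusted p was under 0.05 for 6 of the 60, against 11.8% of all genes. Levels were separated between the labels for 5 genes higher and 4 lower, against 8.41% and 8.19% of all genes. In the agrin, Lrp4 and MuSK signalling list 0 of 18 passed. Lrp4, the agrin receptor, stood at 222, 274 and 195 CPM against 268, 239.9 and 261 CPM, with corticosterone 2 highest and corticosterone 3 lowest (log2 difference -0.15 ± 0.13). Macf1, a cytoskeletal linker, differed by 0.32 ± 0.20, and Ctnnb1, beta-catenin, by -0.20 ± 0.09 with an edgeR adjusted p of 0.426.

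Of the synaptic anchoring and matrix genes 0 of 16 tested passed, with 13 differences above 0. Colq, the collagen tail that fixes acetylcholinesterase in the matrix, stood at 10.2, 11.5 and 10.7 CPM against 13.6, 14.6 and 9.98 CPM. Thus Colq was highest in vehicle 1 and 2 and lowest in vehicle 3, with a log2 difference of -0.24 ± 0.16 (edgeR adjusted p = 0.570). Dag1, dystroglycan, and Plec, plectin, differed by 0.08 ± 0.13 and 0.10 ± 0.14. Of the synaptic and activity-dependent transcription genes 0 of 16 tested passed. Myog, the myogenic factor myogenin, stood at 791 ± 44.0 against 723 ± 124 CPM, and Runx1 at 268 ± 21.1 against 271 ± 31.7 CPM (SD, n = 3 each). Hdac9, a deacetylase that acts on activity-dependent muscle genes, is named because of its values. It was called lower without corticosterone 1 (log2 difference -1.93, edgeR adjusted p = 0.0446), where 0.199% of all genes were called. It stood at 8.94, 2.77 and 1.89 CPM against 9.93, 8.20 and 8.52 CPM, low in corticosterone 2 and 3 and in no other library.

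Of 8 receptor assembly and glycosylation genes tested 0 passed, with 6 differences above 0 and a median of 0.14. Among the 8, levels were separated between the labels for 4 genes higher and 1 lower, against 8.41% and 8.19% of all genes. Canx, the chaperone calnexin, stood at 656, 709 and 705 CPM against 627, 594 and 614 CPM, without overlap between the labels, and Calr, calreticulin, at 1418 ± 233 against 1300.4 ± 160 CPM. The log2 difference of Canx was 0.17 ± 0.08 (edgeR adjusted p = 0.434). Gfpt1, the entry enzyme of the hexosamine pathway, is also named because of its values and stood at 121, 132 and 128 CPM against 103, 103 and 115 CPM, again without overlap (log2 difference 0.25 ± 0.08, edgeR adjusted p = 0.364). Dpagt1, an enzyme that starts the assembly of N-glycans, named for the same reason, lay in the other direction without overlap, at 21.0, 18.0 and 18.0 CPM against 24.8, 24.8 and 23.5 CPM (log2 difference -0.36 ± 0.10, edgeR adjusted p = 0.364). The neuronal nicotinic subunits were nearly absent. Chrna3, Chrna6, Chrna7 and Chrna9 had 0 counts in all 6 libraries, and the most abundant of the 11, Chrnb2 and Chrna10, had 0.977 to 1.65 and 0.376 to 1.03 CPM.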

How the data were processed

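RNA of 6 libraries was sequenced, and the authors deposited raw counts of reads per gene. Build mm10, with DESeq2 1.24.0, HTSeq 0.6.1 and HISAT2 2.0.5, is named in the submitters' processing notes, without settings. Annotation release, strand setting and filters: not given in the sources used here. Of the gene identifiers, 98.95% matched GENCODE M21.

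Counts were tested as deposited with edgeR 4.0.16 (R 4.3.3), a two-sided quasi-likelihood F-test with TMM scaling, filterByExpr and Benjamini-Hochberg adjustment over 14450 genes at 0.05. Standard errors and 95% intervals come from that fit. On simulated counts of 14276 genes, made from these libraries' means, depths and fitted dispersions, it recovered 37.3% of 67 genes changed 1.5-fold and 80.6% of 67 changed 2-fold, with 13 false calls. The simulated libraries were drawn independently under right labels and had no near pairs. These rates therefore do not give the share that would be recovered in the real libraries. Alternatives were DESeq2 1.42.0, limma-voom (limma 3.58.1), 3 scalings, 2 filters, replicate number or near pair as a block, and libraries left out. Variance shares used log2(CPM + 0.5). Near pairs were checked on log2 values with prior count 2.

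Members and lists were chosen with earlier results of these data known. Genes named were the members, Lrp4, Colq, Fkbp5, Tsc22d3, called genes of each list or its 2 most abundant, and genes said to be chosen later. Protein sequences were not analysed here. The result of 1 further marker list is not reported here.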

Additional observations from a re-analysis of the deposited data

How the results depend on the processing

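No member changed its side of the threshold under any of 17 alternatives except Chrng, called with corticosterone 1 and vehicle 3 left out (0.60), which made 1 member called in place of 0. Hdac9 was the 1 partner gene called with that pair left out, and the partner count ran from 0 to 1 with 1 library left out. Over all genes the count of 0 became 138 by DESeq2, 3 without corticosterone 2 and vehicle 2, 575 without corticosterone 1 and vehicle 3, and 0 to 29 with 1 library left out (11 without vehicle 3, 29 without corticosterone 1). It stayed 0 by limma-voom, under the 3 scalings, under both filters and with either block.

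With the near pair as a block, so that the difference rests on corticosterone 1 against vehicle 3, the log2 difference turned to -0.013 for Chrna1, -0.14 for Chrnd, -0.13 for Chrng, -0.62 for Chrne, 0.11 for Musk, -0.11 for Rapsn and -0.055 for Agrn. Without corticosterone 2 and vehicle 2 it turned to -0.033 for Chrnd, -0.075 for Chrne, -0.031 for Rapsn and -0.084 for Agrn, and without corticosterone 1 and vehicle 3 Chrne reached 0.96. With library totals Rapsn turned to -0.00036. With 1 library left out, the range was -0.012 to 0.23 for Chrnd, -0.28 to 0.044 for Musk, -0.0062 to 0.12 for Rapsn and -0.085 to 0.20 for Agrn. The cause was not tested. Chrnb1, Dok7 and Ache kept their direction under all 17, though Chrnb1 ran from 0.046 to 0.32 and Dok7 from 0.048 to 0.30 with 1 library left out, and Dok7 was 0.019 with the near pair as a block. With the longest transcript, Chrng to Chrne became 51.0 and Chrng to Chrna1 0.863.

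Replicate numbers did not pair the libraries. Same-numbered libraries deviated from their group means with correlations of -0.15, -0.27 and -0.32 over genes, and with the replicate block 0 genes and 0 members were called. At 67 to 172 counts per library, Ache is the member most limited by depth.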

Other observations

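For each member, the 2 genes whose log2 CPM was most like it over the 6 libraries were taken among genes with a mean of at least 5 CPM. Because the libraries lie in 3 near pairs and share them for every gene, these likenesses rest on few separate points and are given without a test. Chrna1 was most like Gprasp1 and Hnrnpl, and Chrnb1 most like Hip1 and Upf1. Chrng was most like Mars, a methionyl-tRNA synthetase gene (Pearson r = 0.998), and Syt8, at 11.8, 14.6 and 14.4 CPM against 5.63, 5.72 and 15.6 CPM. Chrnd was most like Dtx3 and Cbfa2t3, and Chrne most like Serinc2 and Zfp950. Rapsn was most like Adssl1, a muscle adenylosuccinate synthase gene, and R3hdm1. Dok7 was most like Dot1l and Mylk2, which encodes skeletal myosin light chain kinase, at 55.7, 42.1 and 45.6 CPM against 30.3, 36.0 and 55.4 CPM. Musk was most like Nbeal2 and Adgrd1, at 8.94, 3.70 and 3.38 CPM against 5.12, 5.48 and 8.14 CPM. Agrn was most like Pml and Ganc (r = 0.977 for the last, the lowest of the 20). Ache was most like Fstl3, a binding protein of activins, and Flt1, a receptor of vascular growth factor, at 8.73, 7.74 and 16.9 CPM against 2.78, 5.14 and 3.26 CPM.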
